A study of Xerophyta schlechteri with 51 samples.

Results

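Senescent tissue (ST) and pre-senescent tissue (PST) of the same plant species were compared 48 h after dried leaves had been rewatered. The compared libraries were chosen by the column names of the deposited table, which give the tissue state, the stage and a replicate number, and they make up 6 of the 51 libraries of the series (3 of rewatered ST and 3 of rewatered PST). The series measured RNA in leaf blades of Xerophyta schlechteri at full turgor, at 75%, 55%, 35% and <10% relative water content (RWC, where full turgor stands for all the water a leaf can hold) and after rewatering, in ST, PST and non-senescent tissue (NST), with 3 libraries a group and no PST at full turgor. The groups used here are rewatered ST, rewatered PST, dry ST and dry PST (both at <10% RWC), and NST at every stage, with no genetic or chemical treatment named in the labels for any of them. Stages carry the water content of the NST, and the protocol gives the water content after rewatering only as varying, so the water held by each rewatered ST or PST library was not known here. The labels give no plant age, growth conditions or position on the leaf. They do not say which libraries come from separate plants, so p-values measure the spread between these libraries, which may be partly technical.

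Xerophyta is a genus of resurrection plants, whose leaves survive almost complete water loss. Its species are known for taking down chlorophyll and the photosynthetic membranes while drying and for building them again when water returns. Senescence is the ordered breakdown of a leaf that moves its nutrients elsewhere, and tissue that has passed through it does not regain function. By its name PST is the state before senescence, and the comparison of ST with PST after rewatering addresses what separates these states when water returns.

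The table pairs no gene ID with a name, so marker genes could not be used to check the tissue labels, and genes are described by how they behaved in NST. These groups were set on differences between libraries other than those of rewatered ST and rewatered PST. The estimate of the spread and the filter on low values were shared by all libraries, so group and call are not fully independent. Values are FPKM (sequenced fragments per unit of transcript length and library size), and log2 values are of FPKM + 1, which understates the change of low genes. Of 21815 entries, the 18717 with at least 1 FPKM in at least 3 libraries were tested with limma, and a gene was called at a Benjamini-Hochberg adjusted p under 0.05. In such bulk samples fewer cells of a type and less RNA per cell cannot be told apart.

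The 6 libraries did not fall into a clean ST group and a clean PST group. Rewatered PST replicate 2 stood with the ST libraries. Its root mean square distance was 0.784, 0.888 and 0.831 log2 units to ST replicates 0, 1 and 2, against 1.03 and 1.06 to PST replicates 0 and 1. The 3 ST libraries lay 0.768 to 0.828 from each other, and PST replicates 0 and 1 lay 0.707 apart. Results are therefore given below for each replicate number and without PST replicate 2 where they lead.

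The same split appeared when each library was set against the mean of each NST group. ST replicates 0, 1 and 2 lay 0.789, 0.792 and 0.543 from NST at 35% RWC and 0.816, 0.791 and 0.594 from dry NST, but 1.71, 1.87 and 1.9 from rewatered NST. PST replicate 2 lay 0.838 from dry NST and 1.61 from rewatered NST, like the ST libraries. PST replicates 0 and 1 were nearest to rewatered NST (1.1 and 1.09), and were farther from dry NST (1.4 and 1.42). Their distance to any NST group was nevertheless larger than the distance of any ST library to NST at 35% RWC. By median absolute distance in place of root mean square, PST replicate 1 was nearest to NST at full turgor (0.533, against 0.55 to rewatered NST).

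**Figure D1:**
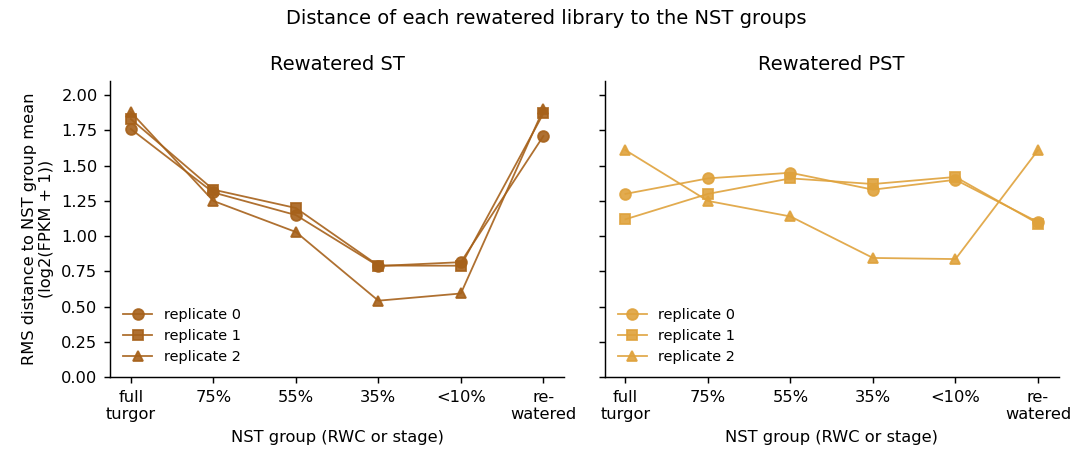
Root mean square distance (log2(FPKM + 1), vertical axis) of each rewatered ST library (left) and PST library (right) to the mean of each NST group (horizontal axis, from full turgor through drying to rewatered), one line per library. All 3 ST libraries and PST replicate 2 dip at 35% and <10% RWC, while PST replicates 0 and 1 have their lowest point at rewatered NST, at 1.1 and 1.09.

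Fewer genes were detected in ST. At least 1 FPKM was reached by 14002 ± 245 genes in rewatered ST and by 15201 ± 347 in rewatered PST (SD, n = 3 each). PST replicate 2, with 14806 genes, had the fewest of the PST libraries and still more than any ST library, which had 13775 to 14262. The number of entries listed at 0 was 3603 to 4488 in ST and 2089 to 2321 in PST. Summed FPKM was 906083 ± 73562 in ST and 699177 ± 36415 in PST (SD, n = 3 each), and the 10 highest entries held 16% to 20.2% of it in ST and 11.2% to 14% in PST. The table holds no counts, so the depth behind these values is unknown, and the part that depth plays in detection was not tested.

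ST exceeded PST in 2043 genes after rewatering and fell short of it in 2271, together 23% of the genes tested (limma, all 51 libraries sharing 1 estimate of the spread, background 10.9% higher and 12.1% lower). With the replicate number within each stage as a block, 4022 were higher and 4316 lower, or 44.5% of the genes tested. The numbers of rewatered ST and PST libraries paired in the data, as the correlation of deviations from the group means was at least 0.384 for each of the 3 same-number pairs. Without PST replicate 2 the counts were 2773 higher and 3075 lower. They were 876 and 1209 without PST replicate 0, 710 and 1063 without PST replicate 1, and 1259 and 1465 without ST replicate 2. The calls rest on the spread shared over all groups. With the 6 compared libraries alone limma called 0 genes, with 5298 at an unadjusted p under 0.05, and 0 also with the block (6486 at an unadjusted p under 0.05). The 9 rewatered libraries alone gave 573 higher and 870 lower, and 1344 and 1467 with the block. The median over genes of the SD within a group was 0.327 log2 units in rewatered ST and 0.428 in rewatered PST, the highest of the 17 groups (the third highest by root mean square), so for many genes the shared spread is narrower than that of PST.

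Many differences were large, and more of the large ones were losses in ST. Of the called genes, 1382 were at least 1 log2 unit higher in ST and 1793 at least 1 lower. At 2 log2 units the counts were 289 higher and 536 lower, and at 4 they were 1 higher and 19 lower. In 1592 of the 2043 higher genes and 1792 of the 2271 lower genes the 3 ST values did not overlap the 3 PST values, where over all genes tested 15.1% were higher and 17% lower without overlap. A total of 37 entries reached 1 FPKM in every ST library and in no PST library, against 300 that did so in every PST library and in no ST library. None of the 37 was listed at 0 in every PST library, while 21 of the 300 were listed at 0 in every ST library.

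Abundant transcripts leaned to ST and scarce ones to PST. Among the 77 genes with a mean of 1000 FPKM or more over all 51 libraries, 33 were higher and 5 lower in ST (42.9% and 6.49%). Their median log2 difference was 1.93. Among the 1110 genes with a mean of 100 to 1000 FPKM, 442 were higher and 68 lower (39.8% and 6.13%, median 0.949). Genes with means of 10 to 100 FPKM had 1357 higher and 663 lower (17.5% and 8.53%). Those of 1 to 10 FPKM had 191 higher and 1297 lower (2.59% and 17.6%), with a median of -0.284. All genes tested gave 10.9% higher and 12.1% lower. The median over all genes tested was -0.06. With the block, 68.8% of the genes of 1000 FPKM or more were higher and 13% lower. For those of 1 to 10 FPKM it was 8.5% and 31.3%. The mean that sets these classes includes the drying stages and the compared libraries. Genes induced by drying therefore tend to higher classes and repressed ones to lower classes. The lean is thus not separate from the induced and repressed groups described next.

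As a group, the genes that drying induces in NST had a median near the dry NST level in rewatered ST and a lower one in rewatered PST. This group holds the 3199 genes called at least 1 log2 unit higher in dry NST than in NST at full turgor. Its median above NST at full turgor was 1.81, 1.94 and 1.96 log2 units in rewatered ST replicates 0, 1 and 2, and 0.832, 0.607 and 1.63 in rewatered PST replicates 0, 1 and 2, with 1.89 ± 0.0709 in dry NST (SD, n = 3). The ST libraries thus spanned a range around the dry NST value, and all 3 PST libraries lay below them, PST replicate 2 by the least. A median near the dry NST level does not mean that ST stayed as it was when dry. Rewatered ST differed from dry ST in 5604 genes (2576 higher and 3028 lower, 29.9% of the genes tested), and rewatered PST from dry PST in 5625 (3050 and 2575, 30.1%). In the induced group 1372 genes were higher in ST and 8 lower (42.9% and 0.25%, where all genes tested gave 10.9% and 12.1%). The counts with the block were 2230 and 32, and without PST replicate 2 they were 1829 and 4. The median log2 difference between ST and PST was 0.931, and by replicate number it was 1.07, 1.36 and 0.403 for numbers 0, 1 and 2.

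The genes that drying represses in NST gave the mirror image. For the 4466 genes called at least 1 log2 unit lower in dry NST than in NST at full turgor, the median relative to full turgor was -1.81, -1.96 and -2.04 in ST replicates 0, 1 and 2. It was -0.959, -0.751 and -1.59 in PST replicates 0, 1 and 2, and -1.96 ± 0.0473 in dry NST (SD, n = 3). Again no PST library reached the range of the ST libraries. In 13 of these genes ST was higher and in 1693 it was lower (0.291% and 37.9%). The block gave 48 and 2701. Without PST replicate 2 the counts were 15 and 2214. The median difference between ST and PST was -0.839, or -0.887, -1.22 and -0.343 for numbers 0, 1 and 2. With a pseudocount of 0.1 in place of 1 it was -1.3.

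**Figure D2:**
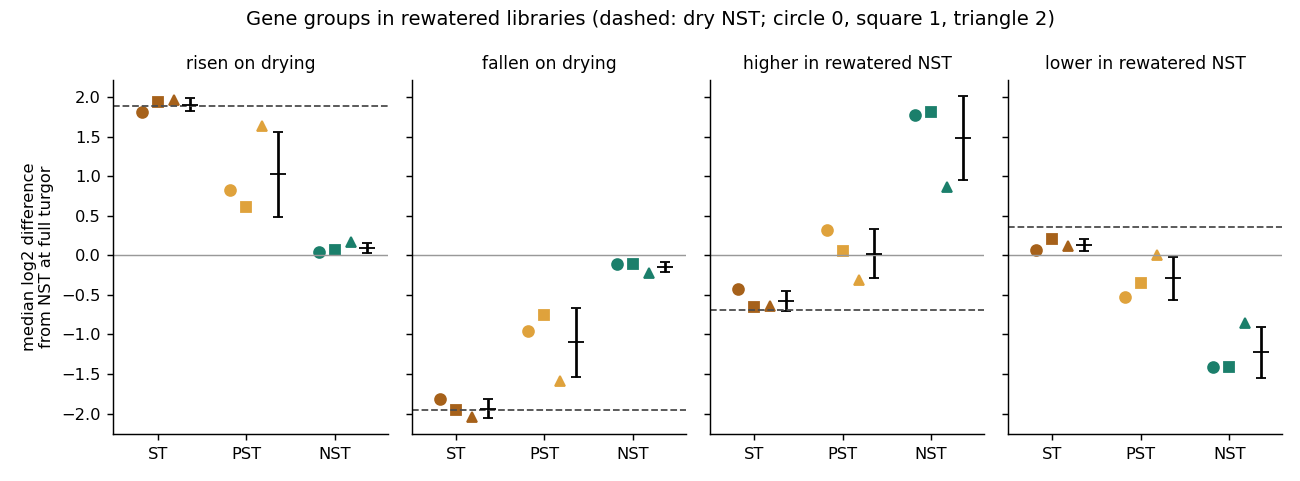
Median log2 difference from NST at full turgor (vertical axis) of 4 gene groups in each rewatered ST, PST and NST library, with the mean and SD over 3 libraries in black, and the mean of dry NST as a dashed line. ST libraries lie near the dashed line in the first 3 panels and every PST library lies between the ST libraries and the NST libraries in all 4, with PST replicate 2 (triangle) closest to ST.

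Recovery was uneven among the PST libraries. For each gene of the induced group the share of its drying change still held was taken, where 1 is the level of dry NST and 0 that of NST at full turgor. The median share was 0.946, 1 and 1.04 in ST replicates 0, 1 and 2, against 0.409, 0.319 and 0.855 in the PST replicates of the same numbers. In PST replicate 0 the quartiles were 0.109 and 0.7, and in PST replicate 1 they were 0.061 and 0.555. The quartiles lay about as far apart in ST replicate 1 (0.759 and 1.22) and in rewatered NST replicate 0 (-0.231 and 0.301), so PST differed in its level and not clearly in its spread over genes. Only 13%, 11.3% and 7.22% of these genes were nearer to full turgor than to the dry level in ST replicates 0, 1 and 2, but 58.4%, 70.3% and 14.6% were in PST replicates 0, 1 and 2. In rewatered NST the share of genes was 85.3% to 89%. For the repressed group the figures were 13.2%, 8.73% and 4.41% in the ST replicates and 51.8%, 61.5% and 20.8% in the PST replicates. In both groups PST replicate 2 was above every ST library, narrowly so in the induced group.

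A larger share of the genes that responded early to drying was called than of the late ones. Of the 1367 induced genes already called at 75% RWC, 818 were higher in ST and 4 lower (59.8% higher), with a median difference of 1.24. The block gave 1092 and 11 (79.9% higher), and 959 and 1 were counted without PST replicate 2. Of the 246 induced genes called only at <10% RWC, 19 were higher and 1 lower (7.72% higher), with a median difference of 0.423. The block gave 86 and 7 (35% higher), and 42 and 0 were counted without PST replicate 2, so the early and late shares lay closer together with the block. These late genes had also changed less on drying (median 1.38 log2 units in dry NST, against 2.25 for the early ones). The median share of the drying change still held in PST replicates 0, 1 and 2 was 0.32, 0.256 and 0.777 for early genes. For late ones it was 0.321, 0.244 and 0.82. In rewatered ST replicates 0, 1 and 2 it was 0.894, 0.904 and 1 for early genes and 0.766, 0.849 and 0.834 for late ones. In dry ST replicates 0, 1 and 2 it was 0.984, 1.08 and 1.01 for early genes and 1.05, 0.925 and 0.927 for late ones. The share was thus lower for late genes in rewatered ST, and already in dry ST replicates 1 and 2. Late genes were called in dry NST alone, the level by which the share is scaled. Of the repressed genes too a larger share of the early ones was called, with 7 higher and 1133 lower (47.3% lower) among 2393. The block gave 14 and 1608, and 8 and 1419 were counted without PST replicate 2. Among 230 late ones 3 were higher and 27 lower (11.7% lower), with 8 and 79 with the block and 4 and 46 without PST replicate 2. All genes tested gave 10.9% higher and 12.1% lower, so without the block neither late group exceeded them. With the block late genes did (35% higher and 34.3% lower, against 21.5% and 23.1%). No test of early against late genes was made.

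Genes raised in NST by rewatering itself were also often lower in ST. A group of 1211 genes was called higher in rewatered NST than in both dry NST and NST at full turgor. Relative to full turgor its median was -0.426, -0.649 and -0.641 in ST replicates 0, 1 and 2, and 0.322, 0.0515 and -0.306 in PST replicates 0, 1 and 2, with 1.48 ± 0.53 in rewatered NST (SD, n = 3). ST was thus near the level of dry NST (-0.691 ± 0.00945), and PST exceeded it in every library without reaching that of rewatered NST. ST was above PST in 4 of these genes and below it in 394 (0.33% and 32.5%), in 16 and 586 with the block, and in 7 and 497 without PST replicate 2. The 556 genes lower in rewatered NST than in both other NST groups had 147 higher and 8 lower in ST (26.4% and 1.44%). Counts were 248 and 21 with the block (44.6% and 3.78%), and 196 and 14 without PST replicate 2 (35.3% and 2.52%). Their median differences between ST and PST by number were 0.574, 0.658 and 0.174. Over all genes tested 10.9% were higher and 12.1% lower. These shares were 21.5% and 23.1% with the block, and 14.8% and 16.4% without PST replicate 2.

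Genes that set dry ST apart from dry NST were not raised in rewatered ST. The 1643 genes called at least 1 log2 unit higher in dry ST than in dry NST had a median difference between rewatered ST and PST of -0.192, with 76 higher and 185 lower in ST (158 and 389 with the block). Their medians relative to NST at full turgor were -0.353, -0.471 and -0.526 in ST replicates 0, 1 and 2, and -0.319, -0.208 and -0.106 in PST replicates 0, 1 and 2. Without the block, the shares of 4.63% higher and 11.3% lower were no greater than those of all genes tested (10.9% and 12.1%). With the block they were 9.62% and 23.7%, against 21.5% and 23.1%, so the lower share was slightly above. ST was higher without overlap in 137 of the 1643 genes and lower in 398, where all genes tested gave 15.1% and 17%. The 985 genes lower in dry ST had a median of 0.09, with 102 higher and 64 lower (226 and 145 with the block, 147 and 100 without PST replicate 2). That median was -0.03 with a pseudocount of 0.1, so its direction turned with the setting. In the fit of all libraries without the block, neither the higher nor the lower share of this group exceeded that of all genes tested. With the block, and without PST replicate 2, the higher share was slightly above that of all genes tested and the lower share was below it.

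**Figure D3:**
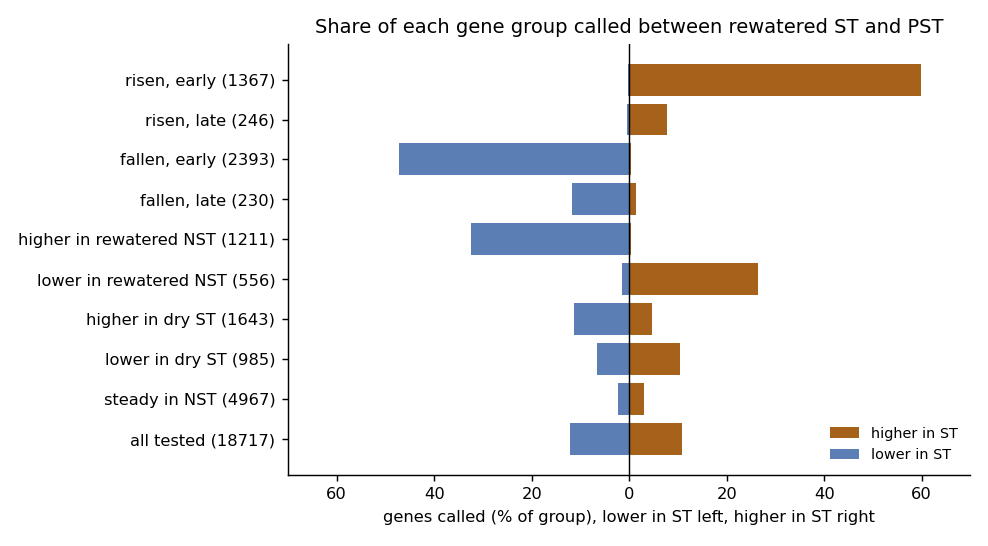
Share of each gene group called between rewatered ST and PST (limma, adjusted p under 0.05, no block), with genes higher in ST to the right and genes lower in ST to the left, group sizes in brackets and all genes tested at the bottom. Early induced genes reach 59.8% higher and early repressed genes 47.3% lower, against 10.9% and 12.1% over all genes.

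Most called genes differed between ST and PST opposite to their change in NST on rewatering. Rewatered ST against PST and rewatered against dry NST share no library, but their calls use the same estimate of the spread. Of the 2043 genes higher in ST than in PST, 1635 (80%) were lower in rewatered than in dry NST, which is 36.7% of the 4460 genes that were so in NST. Of the 2271 genes lower in ST, 1910 (84.1%) were higher in rewatered NST, or 33.3% of 5740. Over all genes tested 23.8% were lower and 30.7% higher in rewatered NST. Over the 18717 genes the differences correlated at -0.765 (Pearson) and -0.722 (Spearman). This describes the genes, which share libraries and are no replicates of each other.

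**Figure D4:**
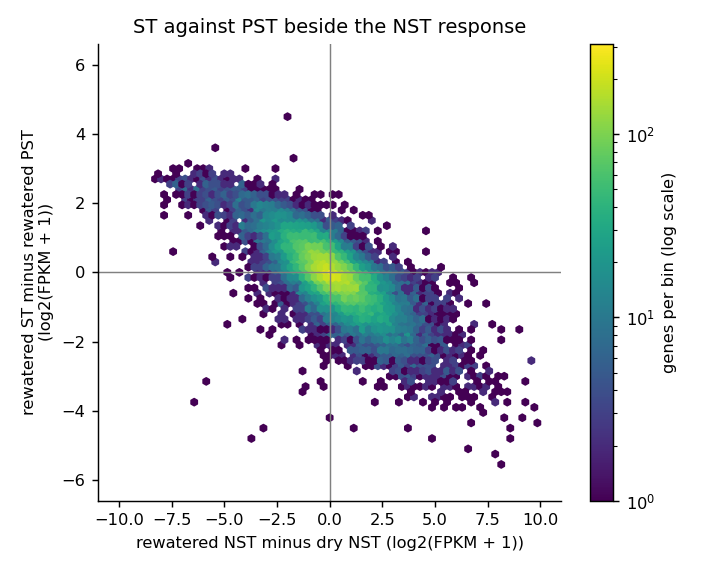
Each gene's difference between rewatered ST and rewatered PST (vertical axis) against its difference between rewatered and dry NST (horizontal axis), both on the log2(FPKM + 1) scale, coloured by the number of genes per bin on a log scale. The cloud slopes down from upper left to lower right (Pearson correlation -0.765), with genes lower in rewatered NST mostly higher in ST.

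A small remainder departed from this pattern. A total of 17 genes were lower in ST than in PST and also lower in rewatered than in dry NST. Their median level was 12.6, 9.63 and 10.2 FPKM in ST replicates 0, 1 and 2, and 18.7, 24.5 and 24.4 FPKM in PST replicates 0, 1 and 2. In rewatered NST it was 4.4 to 9.67 FPKM and in dry PST 15.9 to 20.2 FPKM. These genes were chosen by their difference in the same 6 libraries, which favours genes where PST replicate 2 is high, so their levels are a description. Another 11 genes were higher in ST than in PST and higher in rewatered than in dry NST, with a median level of 35.4, 38.4 and 42.3 FPKM in ST replicates 0, 1 and 2, and 20.2, 21.3 and 32.2 FPKM in PST replicates 0, 1 and 2. Of the called genes, 397 higher and 344 lower in ST had no call in NST between dry and rewatered, a class that holds 45.5% of all genes tested. Among the 4967 genes with no call in NST at any stage, ST was above PST in 147 and below it in 116 (570 and 549 with the block, 210 and 199 without PST replicate 2). These are 2.96% and 2.34% of the class, where all genes tested gave 10.9% and 12.1%. For the 147 higher in ST the median relative to NST at full turgor was 0.34, 0.58 and 0.525 in ST replicates 0, 1 and 2. It was -0.581, -0.567 and -0.0538 in PST replicates 0, 1 and 2, so that ST lay above the level of unstressed NST and PST replicates 0 and 1 below it. The 147 genes were chosen by their difference in these 6 libraries, so their gap is a description.

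The replicate numbers differed in how far ST stood from PST. Between libraries of number 0, 30.5% of the genes differed by at least 1 log2 unit (2578 higher and 3134 lower in ST). For number 1 this was 38.2% (3231 and 3928) and for number 2 it was 14.1% (749 and 1896). In 415 genes ST was at least 1 higher in all 3 pairs, and in 926 at least 1 lower. Of these, 82.4% of the 415 were in the induced group and 81% of the 926 in the repressed group, groups that hold 17.1% and 23.9% of the genes tested. A further 637 genes were at least 1 higher and 787 at least 1 lower in numbers 0 and 1 with a difference under 0.5 either way in number 2. Genes with the opposite pattern, different in number 2 and under 0.5 in the others, were 54 higher and 166 lower. In number 2 the losses of ST thus outnumbered its gains more than in the other pairs. What the numbers mark was not given in the labels.

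Without the block, few of the genes called between ST and PST in the dry leaf were called the same way after rewatering. At 75%, 55% and 35% RWC, 13, 18 and 3 genes were called between ST and PST (0.0695%, 0.0962% and 0.016% of the genes tested by limma, with 1875, 919 and 183 at an unadjusted p under 0.05). At these stages the block gave 1967, 426 and 6 calls, so the low number at 75% and 55% RWC holds only without it. In dry leaf it was 2103 genes (11.2%), 1155 of them higher (6.17%) and 948 lower (5.06%) in ST, and 5641 genes with the block (3186 and 2455). Of those 1155, 51 were also higher in rewatered ST (4.42%) and 121 turned up among those lower in rewatered ST (10.5%). The 948 losses of dry ST included 54 that were lower (5.7%) and 120 that were higher (12.7%) in rewatered ST. Over all genes tested 10.9% were higher and 12.1% lower in rewatered ST. The shares called the opposite way were thus near those of all genes, and the shares called the same way were below them. As shares of the rewatered lists, the 51 and 120 are 2.5% and 5.87% of the 2043 genes higher in ST, and the 54 and 121 are 2.38% and 5.33% of the 2271 genes lower in ST. The rewatered and dry comparisons share no library but use the same estimate of the spread, and the overlap was not counted with the block.

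Tested directly, the gap differed between rewatered and dry leaf in 3902 genes (20.8% of the genes tested), 1686 with a more positive gap after rewatering (9.01%) and 2216 with a more negative one (11.8%). With the block there were 3853 and 4518 (44.7%). The more positive share of 43.2% was 53.9% after quantile normalization. In the induced group the gap became more positive in 979 genes and more negative in 23, and its median was 0.931 after rewatering and -0.0927 in dry leaf. In the repressed group it became more positive in 9 and more negative in 1348, with medians of -0.839 after rewatering and 0.105 in dry leaf. A fit limited to the 4 groups concerned gave 1678. It was 2400 without rewatered PST replicate 1 and 2460 without dry ST replicate 0. A part of the 3902 genes had its gap in dry leaf. Of the 1643 genes higher in dry ST than in dry NST, 822 had a more negative gap after rewatering and 1 a more positive one. Their median gap was 1.4 in dry leaf and -0.192 after rewatering. Of the 985 genes lower in dry ST, 504 had a more positive gap and 1 a more negative one, with medians of -1.21 and 0.0915. Both groups were chosen on dry ST, which enters the dry gap, so these values are a description.

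Single genes are given by ID for the largest changes among called genes with no overlap between the ST and PST libraries and a mean of at least 10 FPKM in the higher group (1492 genes higher and 835 lower in ST met this). The larger of the rises was Xvis03_224716, which stood at 350.95, 239.07 and 117.69 FPKM in rewatered ST replicates 0, 1 and 2, and at 24.73, 4.81 and 40.12 FPKM in rewatered PST replicates 0, 1 and 2. Every ST library was above every PST library. The log2 difference was 3.56 ± 1.12 (standard error, limma adjusted p = 0.0187, and adjusted p = 0.000156 with the block). The gene was induced by drying, with 1946 ± 633 FPKM in dry ST, 871 ± 587 in dry PST and 380 ± 417 in dry NST, against 3.47 ± 3.87 in NST at full turgor (SD, n = 3 each). After rewatering it stood at 5.39 ± 3.43 FPKM in NST (SD, n = 3), and every rewatered ST and PST library was below the lowest dry library of its own group. In dry leaf the gap between ST and PST was 1.32 (limma, adjusted p = 0.542), and its difference from the rewatered gap did not pass the threshold (2.24, standard error 1.58, limma adjusted p = 0.33). The rewatered difference missed the threshold without PST replicate 1, where limma gave an adjusted p = 0.161, without ST replicate 1 (limma, adjusted p = 0.0549) and without ST replicate 0 (limma, adjusted p = 0.0649).

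The second, Xvis03_206585, stood at 4.07, 32.23 and 16.24 FPKM in rewatered ST replicates 0, 1 and 2, and at 0.13, 0.22 and 1.13 FPKM in rewatered PST replicates 0, 1 and 2. The groups did not overlap, but ST ranged widely. Its log2 difference was 3.32 ± 1.13 (standard error, limma adjusted p = 0.0296, and adjusted p = 5.11e-05 with the block). Drying did not change it in NST past the threshold (log2 difference 0.6, limma adjusted p = 0.681), and it stood at 0 to 0.17 FPKM in rewatered NST. In dry leaf it had 6.16 ± 9.28 FPKM in ST and 3.04 ± 1.94 in PST (SD, n = 3 each). Its highest group mean was in ST at 75% RWC, 42 ± 49.4 FPKM, against 3.9 ± 5.09 FPKM in PST at that stage (SD, n = 3 each), so high values were not limited to rewatered ST. The ID occurs on 2 rows of the table, so reads may be split between entries. The call was lost without PST replicate 0, PST replicate 1, ST replicate 1 or ST replicate 2 (limma, adjusted p between 0.0883 and 0.14).

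The largest loss was Xvis03_211541, at 11.2, 2.62 and 2.31 FPKM in rewatered ST replicates 0, 1 and 2, against 452.04, 818.23 and 34.41 FPKM in rewatered PST replicates 0, 1 and 2. PST replicate 2 was the lowest PST library and was still above the highest ST library. The log2 difference was -5.49 ± 0.741 (standard error, limma adjusted p = 2.99e-06). The gene was near 0 in all dry tissues, with 1.96 ± 3.4 FPKM in ST, 0.253 ± 0.439 in PST and 2.07 ± 2.55 in NST, and reached 825 ± 463 FPKM in rewatered NST against 89.4 ± 43.3 in NST at full turgor (SD, n = 3 each). The gap between ST and PST differed between rewatered and dry leaf by -6.14 ± 1.05 (standard error, limma adjusted p = 0.000149). At full turgor ST held 8.47 ± 3.72 FPKM (SD, n = 3).

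Next came Xvis03_215395, at 13.55, 0 and 1.27 FPKM in rewatered ST replicates 0, 1 and 2, against 282.79, 153.24 and 39.02 FPKM in rewatered PST replicates 0, 1 and 2. In rewatered NST it reached 283 ± 37.5 FPKM (SD, n = 3), so PST replicate 0 was at the NST level and PST replicate 2 well under it. It was listed at 0 in every dry ST and every dry PST library, and at 4.98 ± 6.95 FPKM in NST at full turgor (SD, n = 3). The log2 difference between rewatered ST and PST was -5.23 ± 0.731 (standard error, limma adjusted p = 4.76e-06), and the gap differed from that in dry leaf by -5.23 (standard error 1.03, limma adjusted p = 0.000562). Since dry leaf held no gap, the second difference repeats the rewatered gap by which the gene was chosen. Both lost genes were near 0 in dry NST and higher in rewatered NST (log2 differences of 8.2 and 7.9). With only the 6 compared libraries in the fit all 4 genes missed the threshold (limma, adjusted p between 0.115 and 0.118).

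**Figure D5:**
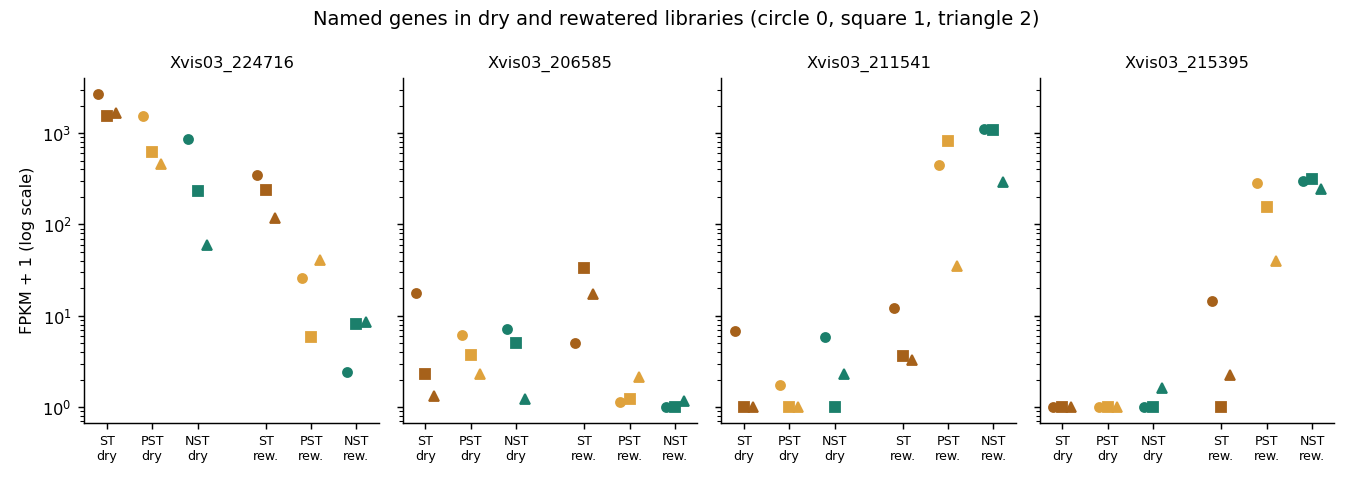
FPKM + 1 on a log scale (vertical axis) of the 4 named genes in each dry and rewatered ST, PST and NST library (rew. for rewatered), one point per library with the replicate number as its shape. Xvis03_224716 and Xvis03_206585 are higher in every rewatered ST library than in any rewatered PST library, and Xvis03_211541 and Xvis03_215395 are lower, with PST replicate 2 the lowest PST library for both.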

How the data were processed

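RNA of leaf blades was sequenced in 51 libraries, and the authors deposited their FPKM values as 1 table, each library being a column. The submitters' processing notes name TopHat, Cuffdiff and Bowtie2, and the design text says that a genome of this species was used. The sources used here do not give versions, settings or the library scaling. The table has 21815 entries for 21282 IDs. The 499 IDs that occur more than once (1032 entries) were kept as separate entries. Entries with at least 1 FPKM in at least 3 libraries were tested (18717, with 3098 left out). Group means of log2(FPKM + 1) were fitted over all libraries by limma 3.58.1 (R 4.3.3) with a variance trend, two-sided, with 34 residual degrees of freedom. Adjustment was over all genes tested. The fit was tested on simulated data. Exact permutation of 3 against 3 libraries cannot go below p = 0.1 and was not used.

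Replicate numbers come from the column names, since the labels give none, and which sample is which column is not stated. The columns of rewatered ST stand in the order 1, 0, 2, and the names were followed. Deviations from group means correlated between rewatered ST and PST at 0.384 to 0.557 for the same number and at -0.352 to -0.12 for different numbers. The block is the number within a stage, and NST shares it. Rewatered NST paired less clearly by number. Same-number correlations for numbers 0, 1 and 2 were 0.243, -0.059 and 0.281 with ST, and 0.339, -0.028 and 0.295 with PST. Named genes are the 2 largest rises and 2 largest falls under the rule given with them. The gene groups and lists were chosen with earlier results of these data known. Low values step by fragment, but the steps did not settle 1 relative depth per library, so depth is unknown. Alternatives were the pseudocount, the filter, scaling, weights, the block, the libraries in the fit and leaving out each library. Counts per gene group without rewatered PST replicate 2 were added after seeing the data.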

Additional observations from a re-analysis of the deposited data

Results flagged for a closer look

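The gap between ST and PST differed between rewatered and dry leaf in 3902 genes by the test of that difference. Xvis03_211541 was one of them, with a difference between the gaps of -6.14 log2 units, and Xvis03_215395 another, at -5.23. Both were named by a rule that asks for a large difference without overlap between rewatered ST and PST, so the size of the rewatered gap is a description. In dry leaf the gap of Xvis03_211541 was 0.66 (limma, adjusted p = 0.682), and Xvis03_215395 was listed at 0 in all 6 ST and PST libraries, which leaves no gap to test there.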

How the results depend on the processing

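Under the replicate block, the count of genes called between rewatered ST and PST was 8338 (4022 higher and 4316 lower), and that of genes whose gap differed from dry leaf was 8371 (3853 and 4518). With library weights the rewatered count was 6694 (3188 and 3506). A fit of the compared groups alone gave 0 (0 and 0), also with the block, and the gap count was 1678 (675 and 1003). The 9 rewatered libraries alone gave 1443 (573 and 870), and 2811 with the block (1344 and 1467). These fits have fewer libraries to estimate the spread. After quantile normalization 1325 genes had a more negative gap. Leaving out each library in turn gave 1773 to 5848 genes between rewatered ST and PST (710 to 2773 higher and 1063 to 3075 lower) and 2400 to 5270 for the gap (931 to 2397 and 1389 to 2873).

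With a pseudocount of 0.1 the median difference between ST and PST was -1.3 for genes repressed by drying, -1 for genes higher in rewatered NST, -0.473 for genes higher in dry ST and -0.0304 for genes lower in dry ST, the last with its direction turned. After quantile normalization that of genes higher in dry ST was -0.00294. Leaving out each library gave medians of 0.733 to 1.26 for induced genes, -1.11 to -0.669 for repressed genes, -0.788 to -0.404 and 0.331 to 0.672 for genes higher and lower in rewatered NST, and -0.237 to -0.146 and 0.0389 to 0.151 for genes higher and lower in dry ST. By median absolute distance 1 library was nearest to rewatered NST. Of 75 values of the 4 named genes under the alternatives, 58 kept their direction and call, 17 lost the call and none turned. With group weights both rises missed the threshold (limma, Xvis03_224716 adjusted p = 0.053 and Xvis03_206585 adjusted p = 0.0569). Unless stated, causes were not tested. With 3 libraries a group and unknown depth, absence of low transcripts cannot be shown.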
